A study of Equus caballus with 25 samples.

Results

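IL8, CCL20 and CXCR4 were followed in bronchoalveolar lavage (BAL) cells of 25 horses on an equine microarray for immune genes. Every probe that the study's lists of changed genes pair with one of these 3 symbols was taken, which gave 3 of the 7238 transcripts on the array, with 1 probe each and 2 spots per probe (IL8, ENSECAT00000016212; CCL20, ENSECAT00000006846; CXCR4, ENSECAT00000003720). The horses formed 3 groups with 1 array per horse. The 7 controls (CTRL) were clinically healthy standardbreds. The 10 horses with mild equine asthma (MEA, labelled IAD, inflammatory airway disease) and the 8 with severe equine asthma (SEA, labelled RAO, recurrent airway obstruction) were mostly saddle horses sampled when they were presented as clinical cases, and no drug, allele or exposure is labelled for any group. All horses were sedated and lavaged with saline and lidocaine, and RNA came from the pelleted mixed cells of each horse without pooling. The MEA horses had been selected for neutrophilic inflammation, and the SEA horses were older than both other groups. Disease cannot be told apart from breed in the comparisons with CTRL, nor from age in those with SEA. Macrophages prevailed by cytology in CTRL and MEA and neutrophils in SEA, and the neutrophil percentages of the 3 groups did not overlap.

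IL8 (CXCL8) is the classical neutrophil attractant, made by macrophages, epithelium and neutrophils themselves once NF kappa B is active, and it acts through the receptors CXCR1 and CXCR2. CCL20 is an epithelial and myeloid chemokine that attracts CCR6-bearing cells, among them the T cells that make IL-17 and immature dendritic cells. CXCR4 is the receptor of CXCL12, carried by most leukocytes, and on neutrophils it is known for their retention in bone marrow and for its return to the surface as the cells age. CXCR1, CXCR2, CCR6 and CXCL12 were not analysed here, since no probe was paired with these symbols.

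The probes are shown here because each level below rests on a single 60-base oligonucleotide. The CCL20 probe is printed whole, and its first reading frame runs through 20 codons of which the only stop is the last, in capitals. Of the IL8 probe the first 30 bases are given, and of the CXCR4 probe the last 30, in which the capitals mark AATAAA, the hexamer known as a signal for polyadenylation.
CCL20: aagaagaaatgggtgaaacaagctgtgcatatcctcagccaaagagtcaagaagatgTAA
IL8: ttgcatgaatttggaaaagtgggaaaggaa
CXCR4: gtcttgtattaagttgttAATAAAagtatg
The hexamer lay at bases 49 to 54 of the CXCR4 probe and was searched for on the printed strand only, where 386 of 7238 probes (5.33%) hold it. Neither of the other probes contained it. No other probe on the array had the same sequence as any of the 3, and the longest run that one of them shared with another probe was 12 bases for IL8, 11 for CCL20 and 12 for CXCR4. Their GC content was 36.7% for IL8, 40.0% for CCL20 and 36.7% for CXCR4, against a median of 45% over all probes.

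Of 50 spots, all 50 lay well above background for each member, none was saturated and none was marked as an outlier by the scanner software. The median difference between the paired spots was 0.15 for IL8, 0.15 for CCL20 and 0.14 for CXCR4 on the log2 scale, although single arrays reached 0.97, 1.81 and 1.0. The share of all spots well above background, which stands in for depth on an array, ranged from 58.2% to 90.8% over the 25 arrays. Values below are log2 normalized intensities; they compare horses for the same probe, not one gene with another. To be called changed, a transcript had to differ at least 1.5-fold with an adjusted p under 0.1. SEA replicate 1 had the lowest mean level of the neutrophil markers in its group (8.28, against a CTRL median of 9.13), and MEA replicate 3 had the highest of all horses (12.52), so that both stood apart from their groups. Values that move most without them are given beside the results.

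IL8 was higher in SEA than in CTRL by 4.91-fold. In CTRL its level ran from 12.17 to 15.24 with a median of 13.78. In MEA it ran from 14.14 to 17.72 with a median of 14.44, and in SEA from 14.46 to 16.92 with a median of 16.27. The controls were therefore widely spread and the SEA horses close together at the top, apart from SEA replicate 1, and 7 of 8 SEA horses lay above the highest control. The means were 13.87 ± 1.31 (SD, n = 7) in CTRL, 14.97 ± 1.12 (n = 10) in MEA and 16.16 ± 0.81 (n = 8) in SEA.

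The log2 difference of IL8 between SEA and CTRL was 2.30 ± 0.51 (SE), with a 95% interval from 1.22 to 3.37, and passed limma's test (adjusted p = 0.00989). In that comparison 32.5% of the 4930 tested transcripts were called and 15.9% were called higher in SEA. By the size of the difference IL8 ranked at place 46 of the 4930. Without SEA replicate 1 the difference was 2.54 (adjusted p = 0.00322). Arrays lay on 4 slides, and within them the difference was −0.03, 3.49, 3.1 and 0.56 for slides 1 to 4, where slides 1 and 4 held 1 SEA array each. Between MEA and CTRL the difference was 1.11 ± 0.54, with a 95% interval from −0.02 to 2.24, and did not pass (adjusted p = 0.227), although 10 of 10 MEA horses lay above the CTRL mean. Without MEA replicate 3 it was 0.80 (adjusted p = 0.288). Called transcripts made up 9.74% in that comparison. Between SEA and MEA the IL8 difference was 1.19 ± 0.44 and did not pass either (adjusted p = 0.153, with 2.05% of transcripts called and 1.32% called higher). It passed when SEA replicate 1 was left out (1.43, adjusted p = 0.0714) and when MEA replicate 3 was left out (1.49, adjusted p = 0.0201), the horses at the lower and the upper edge of their groups.

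CCL20 took a different order, with the lowest levels in MEA and the highest in SEA. It ran from 6.90 to 10.15 in CTRL with a median of 8.87, from 6.94 to 9.04 in MEA with a median of 7.51, and from 7.76 to 12.59 in SEA with a median of 9.45. The MEA horses clustered at the bottom apart from replicates 3 and 5, the controls covered the whole of the MEA range, and SEA replicate 7 was the highest of all horses. The means were 8.58 ± 1.17 (SD, n = 7) in CTRL, 7.74 ± 0.73 (n = 10) in MEA and 9.74 ± 1.48 (n = 8) in SEA.

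CCL20 was 4.01-fold higher in SEA than in MEA, a log2 difference of 2.0 ± 0.49 (SE; 95% interval 0.97 to 3.04; adjusted p = 0.0767), and 6 of 8 SEA horses lay above the highest MEA horse. By size it ranked at place 36 of the 4930 transcripts, of which 101 were called. It was 2.29 without SEA replicate 1 and 2.15 without MEA replicate 3. The call was lost when any of 11 of the 18 horses was left out, and the smallest difference was that without SEA replicate 7 (1.60, adjusted p = 0.104). A fit that took the slide into account gave 1.42 (adjusted p = 0.271). Within slides 1 to 4 it was −0.01, 1.16, 3.61 and 0.97, with a single SEA array on slides 1 and 4 and a single MEA array on slide 3. Against CTRL, CCL20 differed by 1.16 ± 0.63 in SEA, with a 95% interval from −0.18 to 2.51 (adjusted p = 0.184), and by −0.84 ± 0.42 in MEA, with an interval from −1.73 to 0.04 (adjusted p = 0.243). Neither passed, and 8 of 10 MEA horses lay below the CTRL mean. Without SEA replicate 1 the difference between SEA and CTRL passed (1.44, adjusted p = 0.0833). The CCL20 probe was found through the study's own list for MEA against CTRL, and those of IL8 and CXCR4 through its list for SEA against CTRL, all drawn from these same horses, which is no independent evidence of a direction.

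CXCR4 was higher in SEA than in CTRL by 2.54-fold and near the controls in MEA. It ran from 10.86 to 12.82 in CTRL with a median of 11.50, from 9.87 to 13.90 in MEA with a median of 12.05, and from 11.75 to 14.97 in SEA with a median of 13.05. All groups overlapped, and 5 of 8 SEA horses lay above the highest control. The means were 11.79 ± 0.82 (SD, n = 7), 12.01 ± 1.18 (n = 10) and 13.14 ± 1.13 (n = 8). The difference between SEA and CTRL was 1.35 ± 0.48 (SE; 95% interval 0.33 to 2.36; adjusted p = 0.0471), at place 285 by size. Without SEA replicate 1 it was 1.5 (adjusted p = 0.0302), and within slides 1 to 4 it was −0.48, 1.13, 2.85 and 1.28. Between MEA and CTRL the difference was 0.21 ± 0.47 with a 95% interval from −0.78 to 1.21 (adjusted p = 0.82; 0.00 without MEA replicate 3), and between SEA and MEA it was 1.13 ± 0.51 with an interval from 0.07 to 2.19 (adjusted p = 0.218). Neither of these passed.

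**Figure D1:**
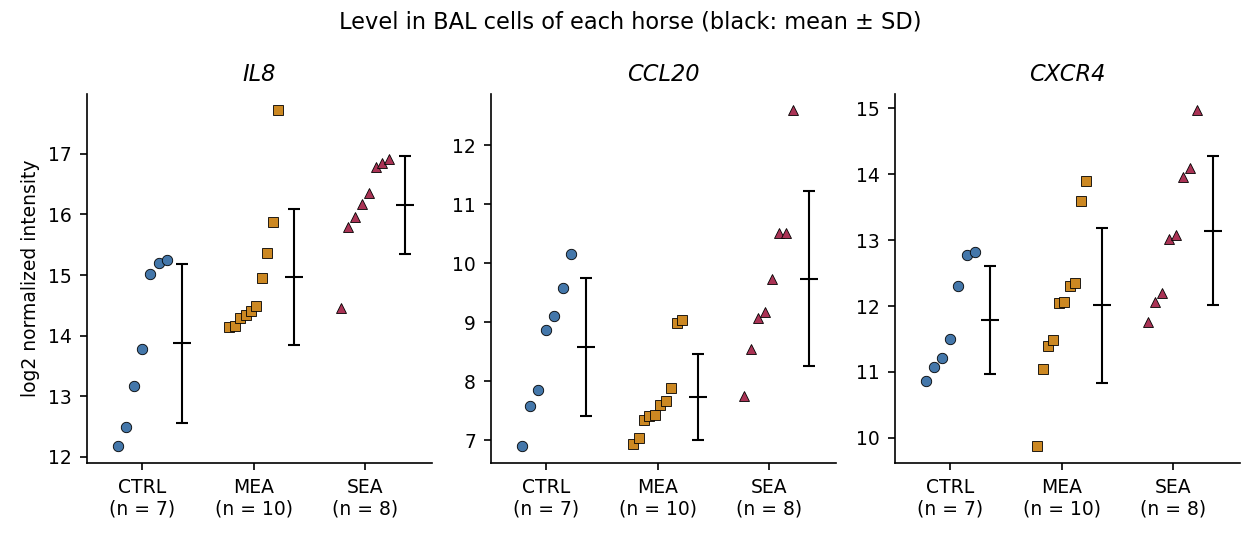
Level of IL8, CCL20 and CXCR4 in each horse as log2 normalized intensity on the y axis, by group, with horses ordered by level within a group and the mean ± SD in black. The IL8 means are 13.87 in CTRL, 14.97 in MEA and 16.16 in SEA, the CCL20 mean is lowest in MEA, and the one MEA horse at 17.72 holds the highest IL8 level of all.

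Marker transcripts of the cell types in the lavage also differed between groups, but not always as the cell counts did. A marker had a symbol here only where the study had listed its transcript as changed in these horses. This held for 8 of 25 neutrophil, 4 of 15 macrophage, 6 of 18 epithelial and 1 of 13 lymphocyte genes sought. The shares called are therefore not independent evidence of a change, and the markers without a symbol could not be followed. No neutrophil marker was called higher in MEA, where every horse had more counted neutrophils than any control. No macrophage marker was called lower in SEA, where neutrophils prevailed by cytology. Epithelial markers fell in both diseases, although the mean counted epithelial percentage was higher in them than in CTRL. Of 9 tested transcripts of neutrophil markers 8 were higher in SEA than in CTRL and 1 was lower, against 15.9% and 16.6% of all transcripts. The count called was 5 of 9 without CTRL replicate 4, 6 without CTRL replicate 1 or SEA replicate 2, 6 with normexp background correction, and 5 at an adjusted p limit of 0.05. The one that fell was LTF, the iron-binding lactoferrin of secondary granules and of airway glands (−2.10 ± 0.76, adjusted p = 0.0515), while TREM1, an activating receptor of neutrophils and monocytes, rose most (3.6 ± 0.84, adjusted p = 0.0119). In MEA against CTRL no neutrophil transcript was called higher and LTF was lower (−1.77 ± 0.52, adjusted p = 0.0613), with 2 of 9 at an unadjusted p below 0.05 and 1 call by the rank-sum test. The mean level of the neutrophil markers ranged from 7.65 to 10.23 in CTRL, from 8.62 to 12.52 in MEA and from 8.28 to 12.27 in SEA. All 7 epithelial transcripts fell in SEA, EPCAM among them (−2.55 ± 0.71, adjusted p = 0.0191), and 5 of 7 fell in MEA, where 6.51% of all transcripts were lower. The MEA count was 2 without any one of CTRL replicates 1, 4 and 6 and MEA replicates 2, 4, 5 and 9, 3 without CTRL replicate 3 or MEA replicate 10, and 0 with the epithelial percentage as a covariate. The epithelial mean had its lowest and median value at 9.92 and 10.85 in CTRL, 8.34 and 9.62 in MEA and 6.41 and 9.19 in SEA. Of 5 macrophage transcripts 2 rose in SEA, CD68 and TREM2, against 15.9% of all transcripts. Another 2 rose in MEA, both of the gene SIGLEC1, against 3.23% of all transcripts. The macrophage means ran from 9.04 to 10.28 in CTRL, 9.66 to 10.88 in MEA and 9.63 to 10.71 in SEA. Of 4 transcripts named GZMB, the only lymphocyte marker named here, 1 rose and 1 fell in SEA, against 15.9% and 16.6% of all transcripts. None was called in MEA, against 9.74% of all transcripts. The GZMB means ran from 8.02 to 10.37 in CTRL, 7.52 to 9.38 in MEA and 6.26 to 9.35 in SEA. None of these markers was below the filter on low values. Their part in the levels of IL8, CCL20 and CXCR4 was not tested, and in mixed cells more cells of a type and more RNA per cell cannot be told apart.

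In MEA against CTRL neither ligand passed the test alone, with IL8 at 1.11 and CCL20 at −0.84. The log2 ratio of the pair was therefore listed for each horse as a description. Permutation p-values were computed for the ratios of the members but are not reported. The pair was chosen after the levels had been seen, and CCL20 had been listed by the study in this very comparison. The log2 ratio of IL8 to CCL20 lay between 4.30 and 6.19 in CTRL with a median of 5.27, and between 6.49 and 8.69 in MEA with a median of 7.06. With both spots averaged the groups did not overlap, all 10 MEA horses lying above all 7 controls. By spot 1 alone they did overlap. There CTRL replicate 7 had IL8 at 15.5 and CCL20 at 8.34, a larger ratio than that of MEA replicate 1 (13.67 and 7.35). How many other pairs of transcripts separate these horses as fully was not counted, so this separation has no background to be set against. Only the difference between groups is read from this ratio, since the level of one probe says nothing of another's. The mean ratio was 1.95 higher in MEA on the log2 scale, or 3.86-fold. Within slides 1 to 4 the difference was 0.87, 2.15, 3.02 and 1.3, and with each horse left out in turn it lay between 1.79 and 2.10.

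In SEA the ratio of IL8 to CCL20 ran from 4.33 to 7.25 with a median of 6.66, between the other groups. The lowest value was SEA replicate 7, the horse with the highest CCL20, and the other 7 horses lay above the highest control. The mean difference from CTRL was 1.13 and that from MEA −0.82. In MEA against CTRL the ratio of CXCR4 to CCL20 differed by 1.06 and that of IL8 to CXCR4 by 0.89 on the log2 scale. The values of both overlapped between the groups.

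**Figure D2:**
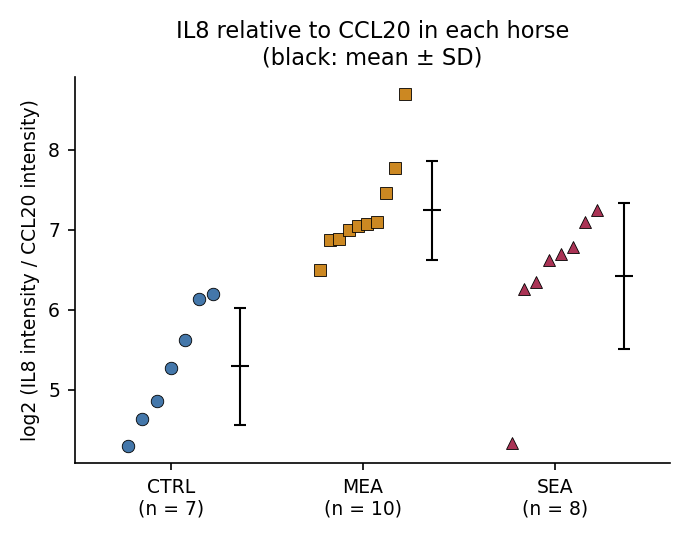
Log2 ratio of the IL8 intensity to the CCL20 intensity in each horse on the y axis, by group, with horses ordered by ratio within a group and the mean ± SD in black. With both spots averaged, all 10 MEA horses lie above the highest control at 6.19, while the SEA horses run from 4.33 to 7.25. The pair was chosen after the levels had been seen.

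The level of all 3 members differed widely between horses of the same group. The SD of IL8 exceeded that of 96.8% of tested transcripts in CTRL, 90.7% in MEA and 71.3% in SEA. For CCL20 the shares were 94.9%, 67.8% and 93.5%, and for CXCR4 83.3%, 92.0% and 85.4%. The same horses tended to stand at the edges. CTRL replicate 5 was the lowest control for all 3 transcripts, MEA replicates 3 and 5 were the highest MEA horses for all 3, and SEA replicate 1 was the lowest SEA horse for IL8 and CCL20.

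Covariation was tested for the 3 pairs within each of the 3 groups, which makes 9 relations with p adjusted over them. In SEA, IL8 and CCL20 rose together (Pearson r = 0.85, exact permutation p = 0.0126, adjusted 0.0283; Spearman rho = 0.95, exact p = 0.00114). Without replicates 1 and 7, the horses farthest from the IL8 median, r was 0.98 over 6 horses (exact permutation p = 0.00556). With the mean of each slide removed it was 0.47, over the 6 SEA horses on slides that hold more than 1 of them. The adjusted p was 0.384 by permutation across slides, which is only approximate for values centred within slides. The relation also missed an adjusted p of 0.05 with 75th percentile scaling (r = 0.78), quantile scaling (0.62), the authors' values (0.79) and spot 2 of each probe alone (0.74). In SEA the relation of CXCR4 to IL8 had r = 0.54 (exact permutation p = 0.162, adjusted 0.209; rho = 0.50, p = 0.216; without 2 horses r = 0.57) and that to CCL20 r = 0.36 (exact permutation p = 0.383, adjusted 0.41; rho = 0.40, p = 0.327; without 2 horses r = 0.50).

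In MEA all 3 pairs were positively related. IL8 and CCL20 had r = 0.86 (permutation p = 0.0020, adjusted 0.0117; rho = 0.70, p = 0.0319), IL8 and CXCR4 had r = 0.74 (p = 0.0122, adjusted 0.0283; rho = 0.56, p = 0.0985), and CCL20 and CXCR4 had r = 0.85 (p = 0.0026, adjusted 0.0117; rho = 0.88, p = 0.00178), all by permutation. The MEA relations did not hold without replicates 3 and 5 together. Without this pair r was 0.50, 0.24 and 0.52 over 8 horses (exact permutation p = 0.199, 0.553 and 0.188). Without replicate 3 alone r was 0.82, 0.61 and 0.76, and without replicate 5 alone 0.91, 0.72 and 0.80, with adjusted p between 0.0567 and 0.136 by permutation. With slide means removed r was 0.94, 0.82 and 0.84 in MEA, without replicate 6, the only MEA horse on slide 3. The relation of IL8 to CXCR4 missed an adjusted p of 0.05 with quantile scaling (0.71), the authors' values (0.72) and spot 1 alone (0.65), and that of CCL20 to CXCR4 with spot 2 alone (0.55).

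In CTRL, with 7 horses, r was 0.83 for IL8 and CCL20 (exact permutation p = 0.0341, adjusted 0.0614; rho = 0.75, p = 0.0663), 0.74 for IL8 and CXCR4 (exact permutation p = 0.0772, adjusted 0.116; rho = 0.89, p = 0.0123), and 0.36 for CCL20 and CXCR4 (exact permutation p = 0.41, adjusted 0.41; rho = 0.46, p = 0.302). None passed after adjustment of the p of r, and leaving out 2 horses leaves 5, with r = 0.77, 0.52 and 0.28. With slide means removed r was 0.95, 0.67 and 0.86, without CTRL replicate 7, the only control on slide 4. The other slides held 2 controls each, so these r rest only on the differences within those pairs.

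**Figure D3:**
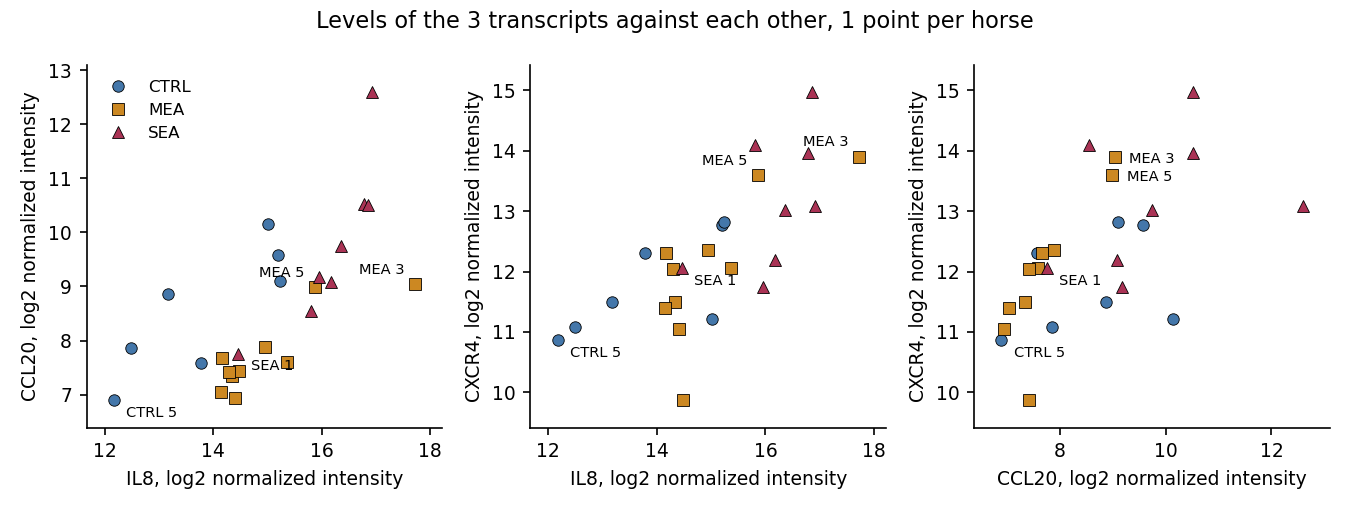
Level of each transcript against each other one, as log2 normalized intensities on both axes with 1 point per horse, and 4 horses at the edges of their groups named by group and replicate. MEA replicates 3 and 5 stand apart from the other MEA horses in every panel, and at a given IL8 level the MEA horses lie below the controls in CCL20.

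The percentage of neutrophils in the lavage, as counted under the microscope, was compared with each member within each group, again as 9 relations. None passed, and all 9 adjusted p were 0.932 by permutation. In CTRL r was −0.11 for IL8 (rho = −0.11), −0.27 for CCL20 (rho = −0.22) and 0.06 for CXCR4 (rho = −0.04). In MEA r was −0.18 (rho = 0.04), −0.07 (rho = 0.29) and −0.03 (rho = 0.12). In SEA r was −0.30 (rho = −0.45), −0.34 (rho = −0.40) and −0.51 (rho = −0.26), but with slide means removed it was 0.16 for IL8 and 0.65 for CCL20. The values with slide means removed leave out SEA replicates 1 and 8, each the only SEA horse on its slide. Without SEA replicate 1 the r of IL8 was −0.74 (exact permutation p = 0.0393, adjusted 0.354), and without MEA replicate 3 the r of IL8 in MEA was 0.06. The lowest unadjusted p was that of CXCR4 in SEA (exact permutation p = 0.197), and without replicates 6 and 8 its r was −0.36. Without SEA replicate 8 alone the r of CXCR4 was −0.77 (exact permutation p = 0.0407, adjusted 0.366), and without SEA replicate 6 alone it was 0.08. For the other relations r without the 2 horses farthest from the median percentage lay between −0.27 and 0.64. These p-values do not show that a relation is absent in groups of 7 to 10 horses, and no r over all 25 horses is given because the percentages of the 3 groups form separate clusters.

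**Figure D4:**
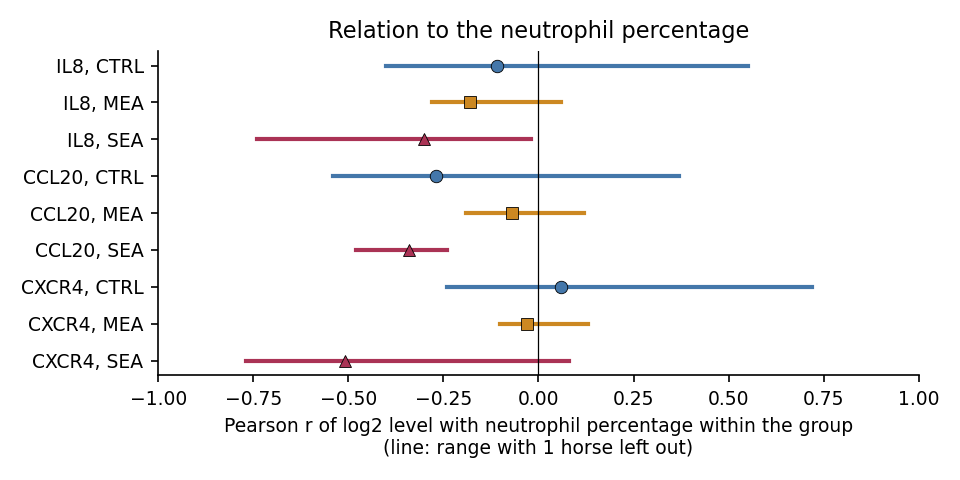
Pearson r between the log2 level of each transcript and the neutrophil percentage within each group on the x axis, with a line for the range of r when 1 horse is left out. The points lie between −0.51 and 0.06, and most lines cross 0.

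The named transcripts whose levels were most like those of each member were sought over all 25 horses after the group means had been subtracted, among 4929 other tested transcripts; r is given as a description, over points that share arrays and slides. For IL8 these were a CXCL2 transcript, which encodes another neutrophil attractant (r = 0.91), PLAUR, the urokinase receptor (0.91), the cyclin CCNL1 (0.90), another CXCL2 transcript (0.88) and CSRNP1 (0.88). For CCL20 they were SOCS3, a suppressor of cytokine signaling (0.82), GADD45B, a stress-induced gene (0.82), the soluble pattern recognition molecule PTX3 (0.82), the phosphatase subunit PPP1R15A (0.82) and another SOCS3 transcript (0.81). For CXCR4 they were the transcription factor CREB1 (0.85), NSMAF (0.84), the kinase SGK1 (0.84), the ubiquitin ligase SIAH1 (0.83) and the kinase MAP4K4 (0.82). CCL20 stood at place 98 in the order for IL8 (0.77) and CXCR4 at place 282 (0.66), so that many transcripts followed IL8 more closely than the other members did. The r between CCL20 and CXCR4 was 0.48.

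These neighbors were higher in SEA than in CTRL in every case, for example PLAUR by 2.41 ± 0.58 (adjusted p = 0.0129), SOCS3 by 2.44 ± 0.58 (adjusted p = 0.0129) and CREB1 by 1.31 ± 0.30 (adjusted p = 0.0108). All had a symbol here only because the study had found them changed in these horses. Between MEA and CTRL the closest neighbors of CCL20 had differences above 0, with SOCS3 at 0.70 ± 0.49 (adjusted p = 0.4) and GADD45B at 0.82 ± 0.49 (adjusted p = 0.332), where CCL20 itself stood at −0.84. PPP1R15A was the one neighbor called between SEA and MEA besides CCL20 (1.09 ± 0.26, adjusted p = 0.0717).

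Among chemokine ligands 13 transcripts of 10 genes were tested, IL8 and CCL20 included. All 13 had a symbol here only because the study had listed them as changed in these horses. The share over all transcripts is therefore no like background for the counts called. In SEA against CTRL 9 were higher and 2 lower, against 15.9% and 16.6% of all transcripts, with a median difference of 1.85 against −0.01 over all. CCL17, which attracts cells with CCR4 and belongs to type 2 inflammation, rose most (3.64 ± 0.80, adjusted p = 0.00981). The neutrophil attractant CXCL2 had 3 transcripts, all higher, by 2.06 ± 0.35, 2.04 ± 0.39 and 1.87 ± 0.43, sizes near that of IL8. It has close paralogs, and hybridization across them was not tested. The monocyte attractants CCL7 (1.85 ± 0.32 and 1.86 ± 0.30) and CCL4 (1.28 ± 0.41) and the macrophage product CCL18 (1.46 ± 0.34) also rose. The mucosal chemokine CXCL17 fell by 2.26 (SE 0.62, adjusted p = 0.0181), and CXCL10, an interferon-induced ligand of CXCR3, fell by 1.03 (SE 0.44, adjusted p = 0.0914). The 2 ligands not called were CCL20 and CXCL11 (−1.17, adjusted p = 0.128).

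In MEA against CTRL 1 ligand was higher, a CXCL2 transcript (1.09 ± 0.31, adjusted p = 0.0499), and 1 was lower, CXCL17 (−1.25 ± 0.43, adjusted p = 0.0926), with a median of 0.56 against 0.03 over all. The higher calls made up 3.23% and the lower ones 6.51% of all transcripts. In SEA against MEA CCL20 was the only ligand of the 13 called. The list median there was 0.97 against −0.04 over all transcripts. With a horse left out between 0 and 6 of the 13 were called in that comparison, 6 without SEA replicate 1 or MEA replicate 3 and 0 without any one of 11 of the 18 horses.

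Among 7 receptors, CXCR4 included, 6 were higher in SEA than in CTRL and 1 was lower, against 15.9% and 16.6% of all transcripts, with a median difference of 1.35 against −0.01 over all. The count called was 4 with normexp background correction. These 7 too had a symbol only because the study had listed them as changed, so the same limit holds for their counts. CCRL2, which binds chemerin, rose by 2.54 ± 0.61 (adjusted p = 0.0131), the lymph node homing receptor CCR7 by 1.83 ± 0.46 (adjusted p = 0.0147), the monocyte receptor CCR2 by 1.25 ± 0.42 (adjusted p = 0.0371) and CXCR6 by 1.18 ± 0.51 (adjusted p = 0.0932). CCRL1, a scavenging receptor, fell by 1.49 (SE 0.48, adjusted p = 0.0337). Mean levels were under the filter's limit of 4.5 for CCRL1 in SEA (4.17), CCR2 in CTRL (4.39) and CXCR6 in MEA (4.11). The sizes of the differences that involve these low means are uncertain. None of the 7 was called in MEA against CTRL by limma, 0 had an unadjusted p below 0.05, and the rank-sum test called 0. In SEA against MEA CCR7 (1.76 ± 0.46) and CXCR6 (1.81 ± 0.47) were called, both at an adjusted p of 0.0857, against 1.32% of all transcripts called higher, and CXCR4 was not. With a horse left out between 0 and 6 of the 7 were called, 6 without MEA replicate 5, 5 without SEA replicate 1 or MEA replicate 3, and 0 without any one of 10 of the 18 horses.

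**Figure D5:**
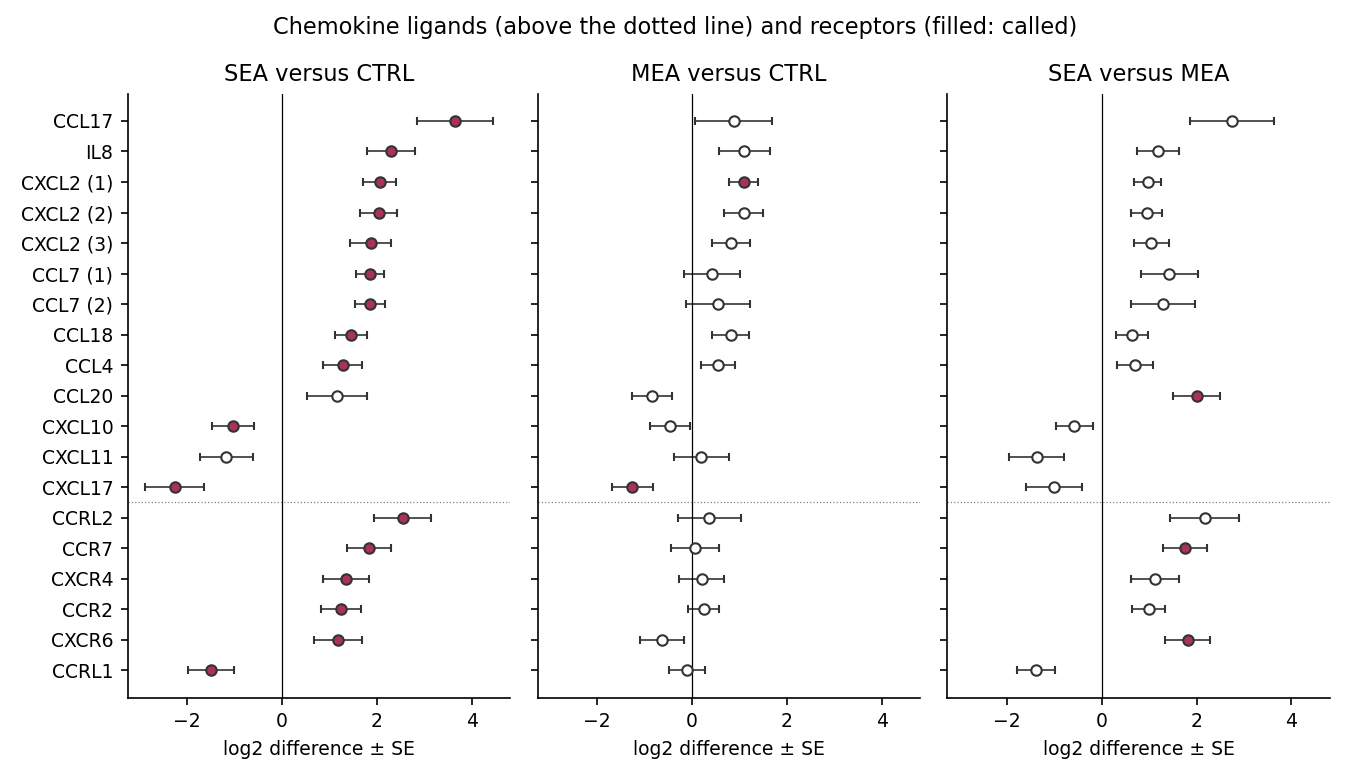
Log2 difference ± SE of 13 chemokine ligand and 6 receptor transcripts on the x axis in the 3 comparisons, with filled points for called transcripts and numbers for transcripts of the same gene. Most points lie to the right of 0 in SEA against CTRL, and CCL20 lies left of 0 in MEA against CTRL and right of it in SEA against MEA, where it is filled.

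The signals upstream of IL8 and CCL20 were followed in a list of inducers and NF kappa B genes, of which 15 transcripts were tested. In SEA against CTRL 14 were higher and none lower, against 15.9% and 16.6% of all transcripts, with a median difference of 1.38. They included the cytokine IL1A (2.31 ± 0.56, adjusted p = 0.0131), the endotoxin receptor TLR4 (2.36 ± 0.63, adjusted p = 0.0173) and the feedback inhibitor TNFAIP3 (2.40 ± 0.63, adjusted p = 0.0163). TNF was the one not called (0.50, adjusted p = 0.251). In MEA against CTRL limma called none (4 at an unadjusted p below 0.05, all higher, and 1 call by the rank-sum test), with a median of 0.63, and in SEA against MEA IL1A was called (1.69 ± 0.43, adjusted p = 0.0857), with a median of 0.71. With a horse left out that last count ran from 0 to 8, with 8 without MEA replicate 3, 4 without SEA replicate 1 and 0 without any one of 11 of the 18 horses. Symbols in all these lists exist here only for transcripts that the study had listed as changed in these horses. The shares called are therefore not independent evidence of a change or of its direction.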

How the data were processed

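RNA of BAL cells was measured on 25 one-color arrays with 14476 spots for 7238 equine Ensembl transcripts. The authors deposited the processed intensity of every spot per array, background-subtracted by Agilent Feature Extraction and not normalized between arrays, and a table of intensities normalized by cyclic loess, used as an alternative (correlation with the values here 0.9994). The submitters' processing notes name R 2.11.1. A genome build is not given in the sources used here. Log2 intensities were normalized between arrays (cyclic loess, 3 iterations, span 0.7) and averaged over both spots. A filter after the wording of the methods, applied to these values, then removed transcripts under 4.5 on 19 or more arrays and kept 4930, which need not be the set the authors tested. No 2 arrays were identical.

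Each comparison was fitted with limma 3.58.1 (lmFit, eBayes) in R 4.3.3 to the arrays of its groups, with Benjamini-Hochberg adjustment over all 4930; the methods' nonparametric SAM is represented by a rank-sum alternative. Calls required a change of at least 1.5-fold and an adjusted p under 0.1. Adjusted p of single transcripts are limma's throughout. Relations used two-sided permutation, exact below 10 horses and otherwise 100000 permutations (scipy 1.17.1), against neutrophil percentages from the study's cytology. In simulated data with 200 of 4930 transcripts changed by 2 on the log2 scale, limma recovered 88.0% for SEA against CTRL, 95.0% for MEA against CTRL and 89.5% for SEA against MEA.

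Symbols came from the study's lists of changed genes, for 1865 of 7238 transcripts and 1684 of the 4930 tested. The members, gene lists and tests were chosen with earlier results of these data known. Named genes were the members, all tested transcripts of the chemokine lists, the 5 named transcripts most like each member, and, of each other list, up to 2 called members with the largest rise and 2 with the largest fall in a comparison. 1 chemokine receptor is counted in its list and otherwise not reported here. Columns of sample values other than those of the 25 horses were 0. Replicate numbers name different horses and pair none. Alternatives were other normalizations, background correction, filters, blocks, a covariate, tests, thresholds and each horse left out. The number of arrays limits the precision. The p-values of limma weigh a group difference against the spread between horses, which also holds differences between slides and scan dates.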

Additional observations from a re-analysis of the deposited data

Results flagged for a closer look

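IL8 in MEA replicate 3 (17.72) lay 1.85 above the next MEA horse, which is 0.52 of the group's range and more than Dixon's limit for 10 samples. IL8 in SEA replicate 1 (14.46) lay 1.34 below the next SEA horse, or 0.55 of the range of 8 samples. About 1 group in 20 is marked in this way by chance, and 9 groups of values were examined. MEA replicate 3 also had the highest mean of the neutrophil markers among all horses (12.52), and SEA replicate 1 the lowest in its group (8.28). By the counted percentage of neutrophils neither horse stood at that edge of its group. The change of CCL20 against CTRL was 2.0 larger in SEA than in MEA on the log2 scale, tested as SEA against MEA (adjusted p = 0.0767 by limma; range with the planned and added alternatives 0.0506 to 0.287).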

How the results depend on the processing

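The SEA against CTRL calls of IL8 and CXCR4 kept their direction and their side of the threshold under all 16 alternatives (IL8 2.06 to 2.54, CXCR4 1.21 to 1.60) and with each horse left out (IL8 2.01 to 2.54, CXCR4 1.08 to 1.54). CCL20 against CTRL in SEA was called with the replicate block (1.33) and ranged from 0.75 to 1.44 with a horse left out. Replicate numbers are shared between groups but name different horses (same-numbered deviations correlated at −0.44 to 0.41 over the 3 comparisons, best with their own number in at most 2 of 8), so the replicate block is no pairing; it gave 136 calls for MEA against CTRL and 0 for SEA against MEA. CCL20 in SEA against MEA kept its direction but lost its call with 75th percentile scaling (2.02), normexp (1.78), slide (1.42) or scan date (1.52) as a block, the replicate block (1.88), the epithelial percentage as a covariate (2.01), the rank-sum test (2.0) and an adjusted p limit of 0.05 (2.0). It ranged from 1.60 to 2.29 with a horse left out, and the call was lost without SEA replicate 2, 3, 5 or 7 or MEA replicate 2, 4, 6, 7, 8, 9 or 10. IL8 in SEA against MEA ranged from 1.08 to 1.49. Calls over all transcripts fell with normexp, under which all 7238 were tested, to 780 for SEA against CTRL, 118 for MEA against CTRL and 0 for SEA against MEA. For MEA against CTRL there were 171 with slide and 216 with scan date as a block, 208 at 0.05, and 0 with the epithelial percentage (613 at an unadjusted p below 0.05), and 157 to 740 with a horse left out, fewest without CTRL replicate 1, 6 and 4 (157, 180 and 189), most without MEA replicate 7, and 290 to 317 when MEA replicate 2, 5, 9 or 10 was out. For SEA against MEA there were 0 with 75th percentile scaling (993 at an unadjusted p below 0.05, 1007 with normexp), 0 with slide (657) and with the replicate block (637), 2 with scan date, 40 with quantile scaling (34 higher and 6 lower, against 65 and 36), 37 with the epithelial percentage, 25 by rank-sum, 265 with all arrays in 1 fit and 2 at 0.05, and 2 to 554 with a horse left out, highest without MEA replicate 3. The causes were not tested. Of the 9 relations between members 4 passed, 2 with quantile scaling, with the authors' values or with the second spot alone, and 0 to 5 with a horse left out (0 without MEA replicate 3 or 5). The relation of CXCR4 to CCL20 in SEA was −0.53 with slide means removed, a setting that leaves out every horse alone of its group on a slide. With these means removed the neutrophil relation turned to −0.26 for CXCR4 in CTRL and to 0.16 for IL8 and 0.65 for CCL20 in SEA; it also turned for IL8 in CTRL with 75th percentile scaling (0.04), and in MEA for CXCR4 with 75th percentile scaling (0.03), quantile scaling (0.04) and the first spot alone (0.06) and for CCL20 with quantile scaling (0.01) and the second spot alone (0.16), and none of these relations passed. The difference in the ratio of IL8 to CCL20 between MEA and CTRL was 1.84 to 2.09 over 7 other normalizations, value sources or spots. With the first spot alone the ratios of these groups overlapped. The difference of IL8 relative to CXCR4 between SEA and MEA was −0.08 with the first spot alone and −0.11 to 0.24 with a horse left out, and that of CXCR4 relative to CCL20 between SEA and CTRL was −0.17 to 0.60 with a horse left out. In SEA against CTRL the alternatives called 10 to 11 of 13 chemokine ligands and 4 (normexp) to 7 of 7 receptors, and in SEA against MEA 0 to 3 and 0 to 4.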
